A study of Homo sapiens with 8 samples.

Results

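Collagens are secreted proteins whose chains wind around each other into a triple helix, and the 38 genes described here encode their chains. They were chosen by name: every protein-coding gene whose symbol is COL, a number, A and a number (COL1A1, for example), with at least 20 counts summed over the 4 input libraries. The symbols of 44 genes among the 60664 gene identifiers in the tables fit that pattern, and 38 reached the minimum. The last gene inside it was COL23A1 with 20 counts, and the first outside was COL6A5 with 18.

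Ribosome-protected fragments, the stretches of mRNA that a translating ribosome shields from nuclease, were sequenced from U-2 OS, an osteosarcoma cell line of human origin. In one line CCT4, a subunit of the cytosolic chaperonin TRiC, carried a HaloTag (CCT4-Halo, here the TRiC line). In the other the prefoldin subunit PFDN4 carried it (PFDN4-Halo, here the PFD line). The study describes each line as a single clone made by CRISPR knock-in. All groups received cycloheximide at 100 µg/ml for 1 min, which halts ribosomes, and the amine crosslinker DSP at 2 mM for 30 min. Each line gave 2 input libraries of all ribosomes and 2 pulldown libraries of ribosomes recovered through the tag, called biological replicates by the study. Line and library batch cannot be told apart, because each line was counted in a table of its own.

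Collagen chains are made on ribosomes at the endoplasmic reticulum and enter its lumen while they grow, where prolines are hydroxylated, chains associate and the helix zips up. A glycine heads each triplet of residues in the helical part, because only glycine fits the crowded centre of the helix. TRiC and prefoldin (PFD), by contrast, are chaperones of the cytosol, best known for folding actin and tubulin. Osteosarcoma cells come from the bone-forming lineage, for which type I collagen is the main matrix product.

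The repeat can be read in the mRNA as a glycine codon, GGN, at the head of each group of codons. The first window of 27 bases inside one exon in the longest such run is shown for 6 members that the results below turn on: both major fibrillar chains and 4 chains that were higher in the TRiC pulldown. Capitals mark the glycine codons. The sequences are the coding strand, 5′ to 3′, of hg38 with the exons of GENCODE release 44.
COL1A1: GGTccctctGGTcctcgtGGTctccct
COL3A1: GGActcgcaGGCtatcctGGAccagct
COL12A1: GGTcgccaaGGGatgaaaGGTgatgct
COL6A3: GGAcccaaaGGAgaaaccGGTgacctc
COL7A1: GGGcctccaGGCccacggGGTgccaag
COL27A1: GGTgacatgGGCttgcctGGGctctcc
The windows lie in coding exons at chr17:50198179-50198205 on the minus strand for COL1A1, at chr2:188987113-188987139 on the plus strand for COL3A1 and at chr6:75102026-75102052 on the minus strand for COL12A1. They lie at chr2:237357826-237357852 on the minus strand for COL6A3, at chr3:48569601-48569627 on the minus strand for COL7A1 and at chr9:114195959-114195985 on the plus strand for COL27A1.

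The members differ widely in how much of the chain this repeat fills. GGN codons made up a median of 24.3% of a member's codons, against a median of 6.35% over 19208 coding genes. Runs of the repeat covered 72.7% of the codons of COL1A1 and 72.9% of those of COL3A1. In COL12A1, whose chain is mostly other domains, they covered 8.19%. The longest unbroken run held 343 repeats in COL3A1, 338 in COL1A1 and 32 in COL12A1.

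The libraries held between 9523128 and 32637658 counts on genes, and 19 members had at least 100 counts in every library. Levels below are CPM, a gene's counts relative to all counts on genes in the library, scaled over the 8 libraries by TMM, which takes most genes as unchanged. Levels of different genes are compared only as CPM per kb of coding sequence. Of the 7 osteoblast lineage markers, SPARC had between 20713 and 95181 counts and RUNX2 between 613 and 1920. ALPL had between 62 and 811 and SPP1 between 117 and 509. IBSP was at 0 in all 8 libraries, SP7 at most at 8 and BGLAP at most at 24. Of the 4 blood and endothelial markers, HBB was at 0 in every library and PTPRC at most at 5, while PECAM1 reached 68 counts and CDH5 reached 275. The counting error of abundant members is small, and the intervals given for shares and for ratios of counts cover counting error only.

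In total the collagens took shares of input counts that differed little between the lines, with both PFD inputs above both TRiC inputs. In the TRiC line, 1.11% and 1.06% of input counts lay on the members. In the PFD line, the inputs held 1.21% and 1.16%. In PFD input replicate 2, the input with the fewest counts, the 95% Clopper-Pearson interval ran from 1.15% to 1.17%. The makeup behind these totals differed between the lines far more than the totals did.

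COL1A1, the α1 chain of type I collagen, was the most translated collagen per kb in both lines. Its inputs stood at 801 and 723 CPM per kb in the TRiC line and at 1043 and 991 in the PFD line. It took 30.7% and 30.4% of all collagen counts in the TRiC inputs, and 37.2% and 37.9% in the PFD inputs. Both PFD inputs lay above both TRiC inputs. COL1A2, the α2 chain that normally joins COL1A1 in type I collagen, had only 29 and 49 counts in the TRiC inputs and 1 and 18 in the PFD inputs. Per kb, COL1A1 stood 2337 times higher than COL1A2 in the TRiC inputs. COL1A1 and COL1A2 share 8 stretches of 28 bases with another gene's transcript, 0.183% and 0.196% of their coding positions. How reads of these genes aligned was not tested.

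The second most translated collagen was a different chain in each line. In the TRiC inputs it was COL3A1, the fibrillar chain of type III collagen, at 332 and 313 CPM per kb. COL6A1 and COL6A2 followed at means of 278 and 249 CPM per kb. In the PFD inputs COL4A2 came next, at 522 and 449 CPM per kb, and COL4A1 after it at 255 and 254. Among the first 7 ranks of the TRiC inputs no neighbours overlapped in their replicates, and COL5A2 and COL4A1, next in order, did overlap. In the PFD inputs COL12A1, COL6A1 and COL8A1 overlapped, at means of 84.0, 84.0 and 81.6 CPM per kb.

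**Figure D1:**
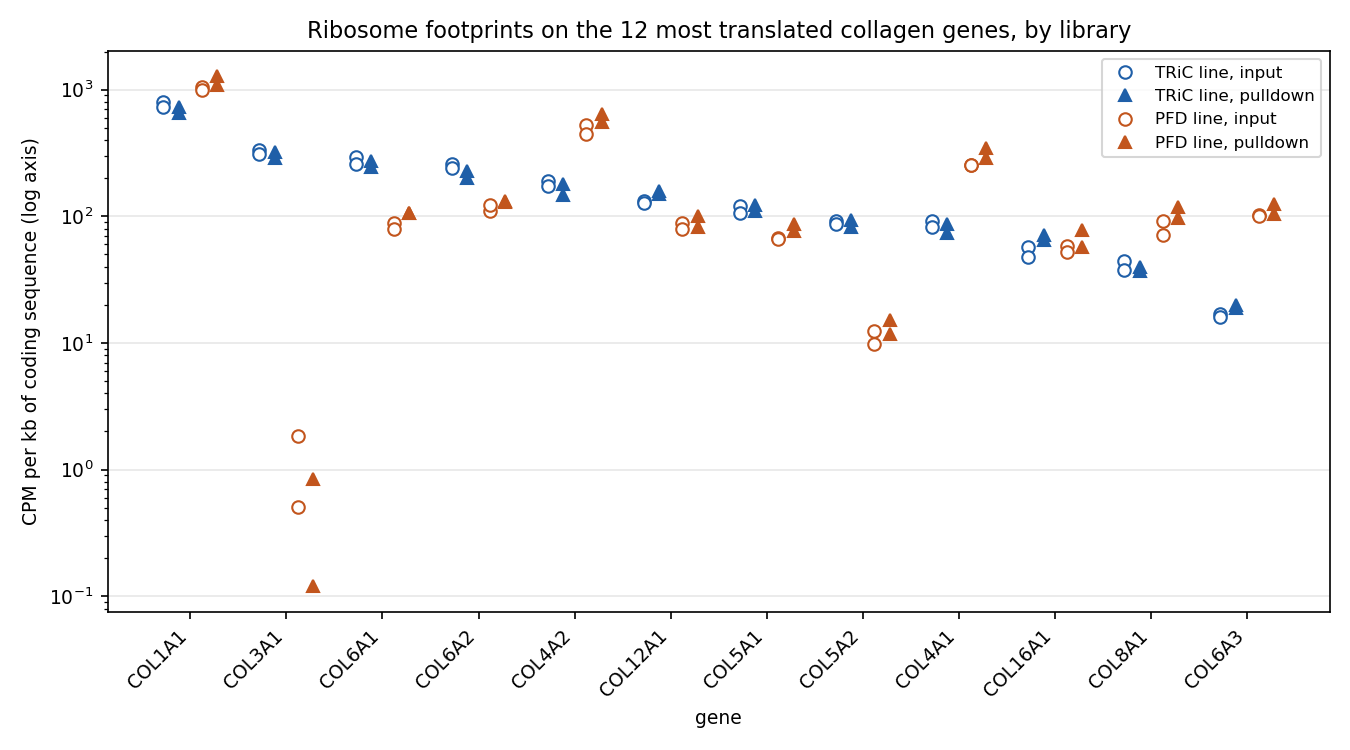
Level of the 12 collagen genes with the highest mean CPM in the inputs, as CPM per kb of coding sequence on a log axis; each point is 1 library, open circles are inputs and filled triangles pulldowns, and genes are ordered by the TRiC inputs. COL3A1 stands between 290 and 332 in the TRiC line and at most at 1.84 in the PFD line, while COL1A1 stands between 648 and 1275 over all libraries.

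The question of how far both clones translate the same collagens was addressed by comparing their inputs. Of the 36 members tested, 18 were higher and 8 lower in the TRiC line than in the PFD line (edgeR quasi-likelihood test, adjusted p under 0.05). Over all 16341 genes tested, 22.6% were higher and 17.7% lower. The median log2 fold change was 0.75 over the members and 0.11 over all genes. Some of the scarce members passed the filter on low counts only through the TRiC line. Among them were COL9A3, COL14A1, COL6A6, COL20A1, COL26A1 and COL24A1, each with at most 1 count over both PFD inputs. The median, the split between higher and lower calls, and the calls, ratios and bounds of these named genes are therefore a description. With at least 10 counts in every library, 25 members were tested and 15 had a log2 fold change above 0. Without TRiC input replicate 1, 10 members were higher, against 10.6% of 17388 genes.

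Markers of cell types differed between the same inputs. Of the 4 osteoblast lineage markers tested, SPARC was higher in the TRiC line at a log2 fold change of 0.47, and ALPL and SPP1 were lower at −3.87 and −1.84. Of the 3 epithelial markers tested, KRT8 and KRT18 were lower at −2.19 and −0.66. Of the 3 cartilage markers tested, ACAN was higher at 2.01. Both endothelial markers tested were higher: CDH5 had 212 and 180 counts and PECAM1 34 and 34 in the TRiC inputs, and both were at 0 in the PFD inputs. CDH5 and PECAM1 thus passed the filter on low counts only through the TRiC line, so their calls are a description. Summed over each list, the epithelial markers stood at 145 to 152 CPM in the TRiC inputs and at 365 to 376 CPM in the PFD inputs, and the blood and endothelial markers at 7.06 to 8.78 CPM against 0. The summed osteoblast markers stood at 3161 to 3172 CPM against 2310 to 2385 CPM, nearly all of it SPARC, and the cartilage markers at 327 to 351 CPM against 273 to 326 CPM. The part of these markers in the collagen differences was not tested.

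Among the fibrillar collagens, COL3A1 had the largest log2 fold change between the lines. It had 40859 and 42070 counts in the TRiC inputs and 42 and 84 in the PFD inputs. That is 1459 and 1375 CPM against 2.23 and 8.11 CPM. The groups were far apart, and the log2 fold change was 8.30 (SE 0.41, n = 2 against 2, adjusted p = 0.000202), a fold of 315. The log2 fold change was 7.46 without PFD input replicate 1 and 9.34 without replicate 2. In bulk libraries, fewer cells that translate a gene and less of its translation in each cell cannot be told apart.

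COL5A2, a chain of type V collagen that regulates fibril width, lies next to COL3A1 on chromosome 2, at 189031898 to 189225312 on the minus strand against 188974373 to 189012746 on the plus strand. It stood at 410 and 392 CPM in the TRiC inputs and at 56.3 and 43.8 CPM in the PFD inputs. Its log2 fold change was 2.99 (SE 0.13, adjusted p = 0.000146), so both neighbours were higher in the TRiC line. COL5A1, the usual partner chain of COL5A2 and encoded on chromosome 9, stood at 666 and 582 CPM against 374 and 363 CPM. Its log2 fold change was 0.76 (SE 0.08, adjusted p = 0.00154). Per kb, COL5A2 stood at 0.755 and 0.825 of COL5A1 in the TRiC inputs and at 0.185 and 0.148 in the PFD inputs.

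The minor fibrillar chains moved the same way, with exceptions. COL5A3, a further type V chain, had 1025 and 1013 counts in the TRiC inputs against 147 and 23 in the PFD inputs, a log2 fold change of 2.72 (SE 0.50, adjusted p = 0.0106), or 3.98 without PFD input replicate 1. COL11A1, a type XI chain of cartilage fibrils, stood at 126 and 130 CPM against 62.1 and 58.3 CPM, a log2 fold change of 1.08 (SE 0.09). COL11A2, another type XI chain, stood at 17.5 and 14.0 CPM against 5.85 and 3.09 CPM, a log2 fold change of 1.79 (SE 0.38). In each of these the 2 TRiC inputs lay above both PFD inputs. COL24A1 had 16 and 23 counts against 1 and 0, a ratio of 19.4 (exact 95% interval 3.28 to 786). Its fitted log2 fold change ran from 3.55 to 6.94 with one library left out.

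COL1A1 and COL27A1 were the fibrillar chains that were lower in the TRiC line. COL1A1 stood at 3519 and 3177 CPM against 4580 and 4354 CPM, a log2 fold change of −0.42 (SE 0.06, adjusted p = 0.00524). COL27A1, a fibrillar chain of developing cartilage, stood at 23.3 and 20.3 CPM against 61.1 and 51.3 CPM, a log2 fold change of −1.37 (SE 0.16, adjusted p = 0.00208). COL2A1, the main chain of cartilage, had 36 and 44 counts against 37 and 2 and was not called.

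The basement membrane chains COL4A1 and COL4A2, which assemble with each other into the type IV network, were lower in the TRiC line by similar amounts. COL4A2 stood at 981 and 886 CPM against 2682 and 2305 CPM, a log2 fold change of −1.42 (SE 0.09, adjusted p = 0.000357). COL4A1 stood at 459.5 and 412 CPM against 1275 and 1272 CPM, a log2 fold change of −1.55 (SE 0.07, adjusted p = 0.000151). Per kb, COL4A2 was at 1.77 to 2.09 times COL4A1 in all 8 libraries, so the pair kept nearly one proportion. These genes stand head to head on chromosome 13 on opposite strands. The other type IV chains were scarcer. COL4A5 stood at 54.5 and 51.5 CPM against 25.0 and 13.1 CPM and was higher in the TRiC line, at 1.45 (SE 0.29, adjusted p = 0.0144). COL4A4, with 84 to 821 counts per library, and COL4A6, with 0 to 56, were not called.

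The chains of type VI collagen, which form beaded filaments around cells, did not move as one. COL6A1 stood at 913 and 804 CPM in the TRiC inputs against 273 and 245 CPM in the PFD inputs, a log2 fold change of 1.73 (SE 0.09, adjusted p = 0.000230). COL6A2, its neighbour on chromosome 21, stood at 793 and 730 CPM against 337 and 373 CPM, a log2 fold change of 1.10 (SE 0.08, adjusted p = 0.000435). COL6A3, the long chain of the type, went the other way, at 161 and 152 CPM against 971 and 953 CPM. Its log2 fold change was −2.62 (SE 0.06, adjusted p = 4.91e-05). Per kb, COL6A3 stood at 0.0572 and 0.0610 of COL6A1 in the TRiC inputs and at 1.15 and 1.26 in the PFD inputs. COL6A6, an alternative long chain, had 57 and 13 counts in the TRiC inputs and 0 in both PFD inputs. With a floor of 3 counts per library that is at least 5.48-fold higher, or at least 1.89-fold without TRiC input replicate 1 and at least 9.06-fold without replicate 2.

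Among the collagens that sit on fibrils (the FACIT class), COL12A1 was the most abundant. It stood at 1215 and 1174 CPM against 812 and 732 CPM, a log2 fold change of 0.63 (SE 0.07, adjusted p = 0.00160). COL22A1, found at tissue junctions, was lower in the TRiC line, with 756 and 849 counts against 2805 and 1644, a log2 fold change of −2.49 (SE 0.09, adjusted p = 0.000118). COL16A1 was not called, at 274 and 231 CPM against 279 and 252 CPM. COL20A1 had 313 and 213 counts against 1 and 0, a ratio of 262 (exact 95% interval 46.8 to 10360). Its fitted log2 fold change ran from 7.32 to 10.7 with one library left out. COL9A3 had 48 and 48 counts and COL14A1 had 33 and 52 counts in the TRiC inputs, and each was at 0 in both PFD inputs. These are bounds of at least 7.31-fold and at least 6.41-fold higher, for genes that passed the filter on low counts only through the TRiC line. COL9A2, with 262 to 1236 counts per library, was not called.

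The remaining classes held few translated genes. COL7A1, the chain of the anchoring fibrils under epithelia, stood at 68.2 and 49.7 CPM against 36.2 and 34.4 CPM, a log2 fold change of 0.74 (SE 0.18, adjusted p = 0.0246). COL8A1, a short network chain of vessel walls, stood at 98.5 and 84.7 CPM against 206 and 159 CPM, a fold of 1.99 downward (log2 SE 0.15, adjusted p = 0.00516). COL17A1, a transmembrane collagen of epithelial attachment, had 95 and 61 counts against 147 and 85, or 3.39 and 1.99 CPM against 7.81 and 8.21 CPM, and was lower at −1.57 (SE 0.44, adjusted p = 0.0361). COL18A1, the precursor of endostatin, stood at 27.5 and 19.0 CPM against 12.3 and 13.8 CPM and was higher at 0.84 (SE 0.25, adjusted p = 0.0434). Exons of opposite-strand genes cover 18.5% of the exon bases of COL18A1, and the strand used for counting is not given in the sources used here. COL26A1 had 41 and 55 counts against 1 and 0, a ratio of 47.8 (exact 95% interval 8.37 to 1907). Its fitted log2 fold change ran from 4.85 to 8.24 with one library left out. The calls on COL17A1, COL26A1, COL9A3, COL14A1 and COL24A1 were lost without TRiC input replicate 1 and also without replicate 2. Those on COL7A1, COL18A1 and COL11A2 were lost without replicate 1 alone, that on COL6A6 without replicate 2 (without replicate 1 it did not pass the filter), and that on COL24A1 also without PFD input replicate 2.

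**Figure D2:**
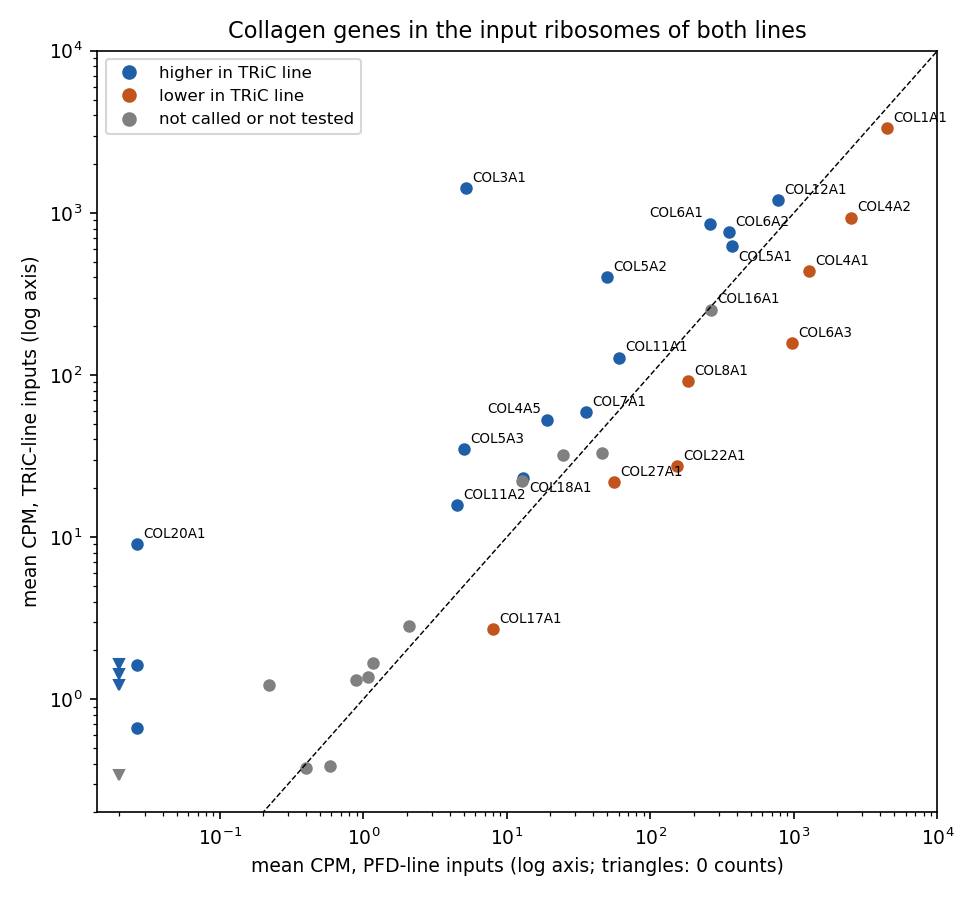
Mean CPM of each of the 38 collagen genes in the TRiC-line inputs (vertical) against the PFD-line inputs (horizontal), both on log axes, with the diagonal of equal levels; blue and orange points are genes called higher and lower in the TRiC line, grey points the rest, and triangles at the left edge genes with 0 counts in both PFD inputs. COL3A1 lies far above the diagonal and COL6A3, COL4A1, COL4A2 and COL22A1 below it.

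The remaining members can be given by their ranges. COL13A1 had 343 to 1199 counts per library, COL8A2 0 to 91 and COL15A1 0 to 72. COL19A1 had 0 to 91 counts, COL28A1 0 to 32 and COL23A1 0 to 10. COL13A1, COL8A2, COL15A1 and COL19A1 were tested between the lines and not called, and COL28A1 and COL23A1 did not pass the filter on low counts. COL14A1, COL6A6, COL9A3 and COL23A1 were the 4 members with 0 counts in both PFD inputs, and each had at least 10 counts in each TRiC input.

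Whether ribosomes making collagen were enriched with TRiC, relative to other genes, was addressed by comparing pulldown with input in the TRiC line. A value near 0 does not mean that a gene was absent from the pulldown. The libraries include no pulldown from untagged cells, so carry-over without the tag was not measured. Of the 37 members tested, 6 were higher and 1 was lower in the pulldown (edgeR quasi-likelihood test, adjusted p under 0.05). Over all 17934 genes tested, 8.64% were higher and 10.6% lower. The median log2 fold change was 0.04 over the members and −0.00 over all genes. The collagen share of counts was 1.16% and 1.03% in the pulldowns, around the input values. COL23A1 was not tested.

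The higher calls fell on chains of several classes. COL7A1 stood at 68.2 and 49.7 CPM in the inputs and at 106 and 91.1 CPM in the pulldowns. Both pulldowns lay above both inputs, and the log2 fold change was 0.75 (SE 0.12, n = 2 against 2, adjusted p = 0.000518). COL27A1 stood at 23.3 and 20.3 CPM in the inputs and at 36.3 and 40.3 CPM in the pulldowns, without overlap. Its log2 fold change of 0.81 (SE 0.12, adjusted p = 0.000238) was the largest among the called members.

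COL11A2 stood at 17.5 and 14.0 CPM in the inputs and at 26.6 and 22.3 CPM in the pulldowns, with a log2 fold change of 0.64 (SE 0.15, adjusted p = 0.00608). COL16A1 stood at 274 and 231 CPM in the inputs and at 343 and 315 CPM in the pulldowns, with a log2 fold change of 0.38 (SE 0.08, adjusted p = 0.00422). In both genes the pulldowns lay above the inputs.

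The 2 longest chains rose by less. COL12A1 stood at 1215 and 1174 CPM in the inputs and at 1389 and 1446 CPM in the pulldowns, with a log2 fold change of 0.25 (SE 0.06, adjusted p = 0.00915). COL6A3 stood at 161 and 152 CPM in the inputs and at 190 and 181 CPM in the pulldowns, with a log2 fold change of 0.25 (SE 0.08, adjusted p = 0.0328). The groups did not overlap in either gene.

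COL6A2 was the lower call, at 793 and 730 CPM in the inputs and 694 and 609 CPM in the pulldowns. The pulldowns lay below the inputs, and the log2 fold change was −0.22 (SE 0.07, adjusted p = 0.0389). Its neighbour COL6A1 stood at 913 and 804 CPM in the inputs and at 847 and 751 CPM in the pulldowns, −0.10 (SE 0.08, adjusted p = 0.372), and its groups overlapped.

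Of the 12 members with the highest mean CPM in the inputs, 4 were called: COL12A1, COL6A3 and COL16A1 higher and COL6A2 lower. The other 8 were not. Over all 17934 genes tested, 19.2% were called in either direction. COL1A1 stood at 3519 and 3177 CPM in the inputs and at 3212 and 2847 CPM in the pulldowns. The groups overlapped, and the log2 fold change was −0.14 (SE 0.07, adjusted p = 0.146). COL3A1 stood at 1459 and 1375 CPM in the inputs and at 1422 and 1276 CPM in the pulldowns, −0.07 (SE 0.07, adjusted p = 0.501). COL4A2 stood at 981 and 886 CPM in the inputs and at 915 and 753 CPM in the pulldowns, −0.16 (SE 0.08, adjusted p = 0.181). In these genes too the pulldown and input ranges overlapped. With a replicate block, which pairs same-numbered libraries, COL1A1 and COL4A2 were lower (edgeR, adjusted p = 0.0120 and 0.0106). Lower calls over all genes rose from 1894 to 2652 under that block. COL4A1 was at −0.11 (SE 0.08), COL8A1 at −0.10 (SE 0.09), COL5A2 at −0.02 (SE 0.07) and COL5A1 at 0.04 (SE 0.08). Of these 12 members, 8 had a log2 fold change below 0, as did 9029 of all 17934 genes tested. Under cyclic loess COL1A1, COL3A1, COL4A1, COL6A1 and COL5A2 were above 0.

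How firmly these calls stand depends on the size asked for and on single libraries. Against a fold of 1.5 (glmTreat), and in a fit of all 8 libraries, with a common dispersion of 0.223, no member was called. Over all genes glmTreat called 0.914% higher and 0.357% lower, and the fit of all 8 libraries 0.0849% and 0.0796%. Without TRiC input replicate 2, only COL7A1 and COL27A1 stayed called higher, against 3.99% of all genes higher. Without TRiC pulldown replicate 1, 6 members were lower, against 13.9% of all genes, and the median over the members was −0.18. The call on COL6A2 was lost without either input and without pulldown replicate 2, and also with library totals, under cyclic loess and once genes overlapping an opposite-strand gene were left out. That on COL12A1 was lost without either input. That on COL6A3 was lost without either input, without pulldown replicate 1 (adjusted p = 0.0662) and with no filter on low counts (adjusted p = 0.0510). The calls on COL7A1 and COL27A1 held with any single library left out, and those on COL11A2 and COL16A1 were lost only without input replicate 2 among these.

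The called chains were long ones in several cases. The members with the longest coding sequences, COL6A3 with 9531 bases, COL12A1 with 9189 and COL7A1 with 8832, were all higher in the TRiC pulldown. Of the other 21 members with a mean of at least 100 counts in the TRiC libraries, 3 were higher and 1 was lower. Over all 17934 genes tested, of any length, 8.64% were higher and 10.6% lower. The log2 fold change correlated with coding length across these 24 genes at Pearson's r of 0.44 and Spearman's rho of 0.40. Without COL6A3 and COL12A1, the genes farthest from the median length, r was 0.50. The correlation with the share of codons in the repeat was −0.31 (Spearman's rho −0.37). The genes share the same 4 libraries and are not independent replicates, and other properties of the chains vary with their length, so these values are a description. In the PFD line the correlation with coding length was −0.10 across 21 genes (Spearman's rho −0.12). That with the share of codons in the repeat was 0.26 (Spearman's rho 0.40).

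**Figure D3:**
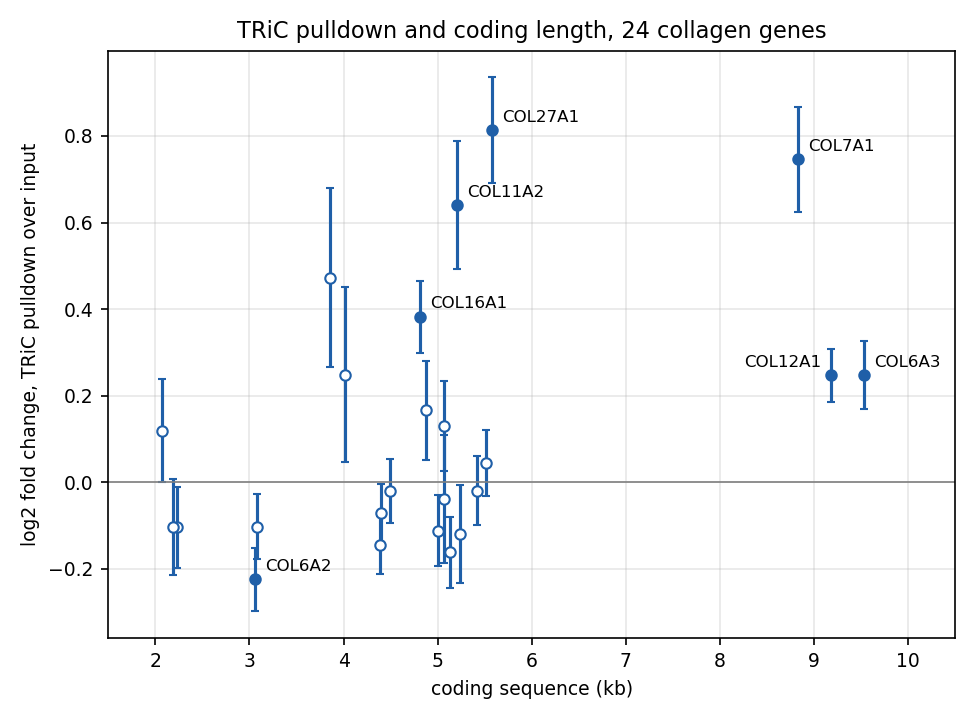
Log2 fold change of TRiC pulldown over input against the length of the coding sequence in kb for the 24 collagen genes with a mean of at least 100 counts in the TRiC libraries; bars are 1 SE and filled points passed an adjusted p of 0.05. COL12A1, COL6A3 and COL7A1 at the right are all above 0, and COL6A2 at 3057 bases is the filled point below it.

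In the PFD line, ribosomes making collagen were compared in the same way, and no member of the 28 tested was called in either direction (edgeR, adjusted p under 0.05), against 0.241% of all 14111 genes tested (0.0496% higher and 0.191% lower). At an unadjusted p under 0.05 there were 7 members, against 6.93% of all genes. DESeq2, which made more false calls than edgeR on simulated data of this design, called 6 members higher and none lower, against 1.81% of all genes higher and 2.09% lower. On those simulated data edgeR recovered 52 of 200 genes changed 2-fold, and DESeq2 recovered 71. The lack of edgeR calls therefore does not show that the members were unchanged. The spread was wide: the common dispersion was 0.331, against 0.0153 in the TRiC line. The median log2 fold change was 0.22 over the members tested and −0.00 over all genes. With one library left out, the members' median ran from 0.11 to 0.31.

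The pulldown values of several abundant members were above the inputs. COL1A1 stood at 4580 and 4354 CPM in the inputs and at 4766 and 5601 CPM in the pulldowns, 0.23 (SE 0.07, adjusted p = 0.659). COL4A2 stood at 2682 and 2305 CPM in the inputs and at 2843 and 3326 CPM in the pulldowns, 0.32 (SE 0.09, adjusted p = 0.584). COL4A1 stood at 1275 and 1272 CPM in the inputs and at 1438 and 1719 CPM in the pulldowns, 0.32 (SE 0.09, adjusted p = 0.574). In each of these genes both pulldowns lay above both inputs, and the differences did not pass the test.

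COL6A1 stood at 273 and 245 CPM in the inputs and at 329 and 329 CPM in the pulldowns, 0.36 (SE 0.12, adjusted p = 0.700). COL5A1 stood at 374 and 363 CPM in the inputs and at 423 and 475 CPM in the pulldowns, 0.30 (SE 0.10, adjusted p = 0.702). COL6A3 stood at 971 and 953 CPM in the inputs and at 994 and 1182 CPM in the pulldowns, 0.19 (SE 0.09, adjusted p = 0.752). These groups did not overlap either, and the same held for COL6A2 and COL8A1, at 0.19 (SE 0.11) and 0.41 (SE 0.16). In 8 of the 12 members with the highest mean input CPM both pulldowns were above both inputs. The same held for 17.9% of all genes tested and for 23% of the 1523 genes with a mean input CPM at least that of the last of these 12. COL12A1, COL16A1 and COL5A2 overlapped, at 0.13, 0.30 and 0.29, and COL3A1, with 5 and 102 counts in the pulldowns, was at −1.29 (SE 1.43). With one library left out, the COL3A1 value ran from −3.22 to −0.079.

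The collagen share of counts was 1.30% and 1.46% in the PFD pulldowns against 1.21% and 1.16% in the inputs. The mean was 1.38% ± 0.113 (SD, n = 2) against 1.19% ± 0.0364. An exact two-sided permutation test gave p = 0.333, the smallest p that 2 libraries against 2 allow.

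COL27A1 had the largest value among the members with at least 100 counts in every library and no overlap. It stood at 61.1 and 51.3 CPM in the inputs and at 163 and 76.3 CPM in the pulldowns, 1.11 (SE 0.36, adjusted p = 0.690). Pulldown replicate 1 was far above replicate 2, and without it the log2 fold change was 0.41. COL7A1 stood at 36.2 and 34.4 CPM in the inputs and at 32.6 and 26.7 CPM in the pulldowns, −0.24 (SE 0.31), with the pulldowns below the inputs. COL11A2 had 110 and 32 input counts against 1 and 216 pulldown counts, so its pulldowns spanned the inputs. Calls appeared where a single library was left out: 6 members were higher without pulldown replicate 1, against 0.688% of 16858 genes higher and 1.66% lower. Without pulldown replicate 2, 6 were higher and 1 lower, against 7% of 15452 genes higher and 8.76% lower, so calls rose over all genes in that fit. In each of these fits 1 pulldown library is left, which is assumed to vary like the inputs.

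**Figure D4:**
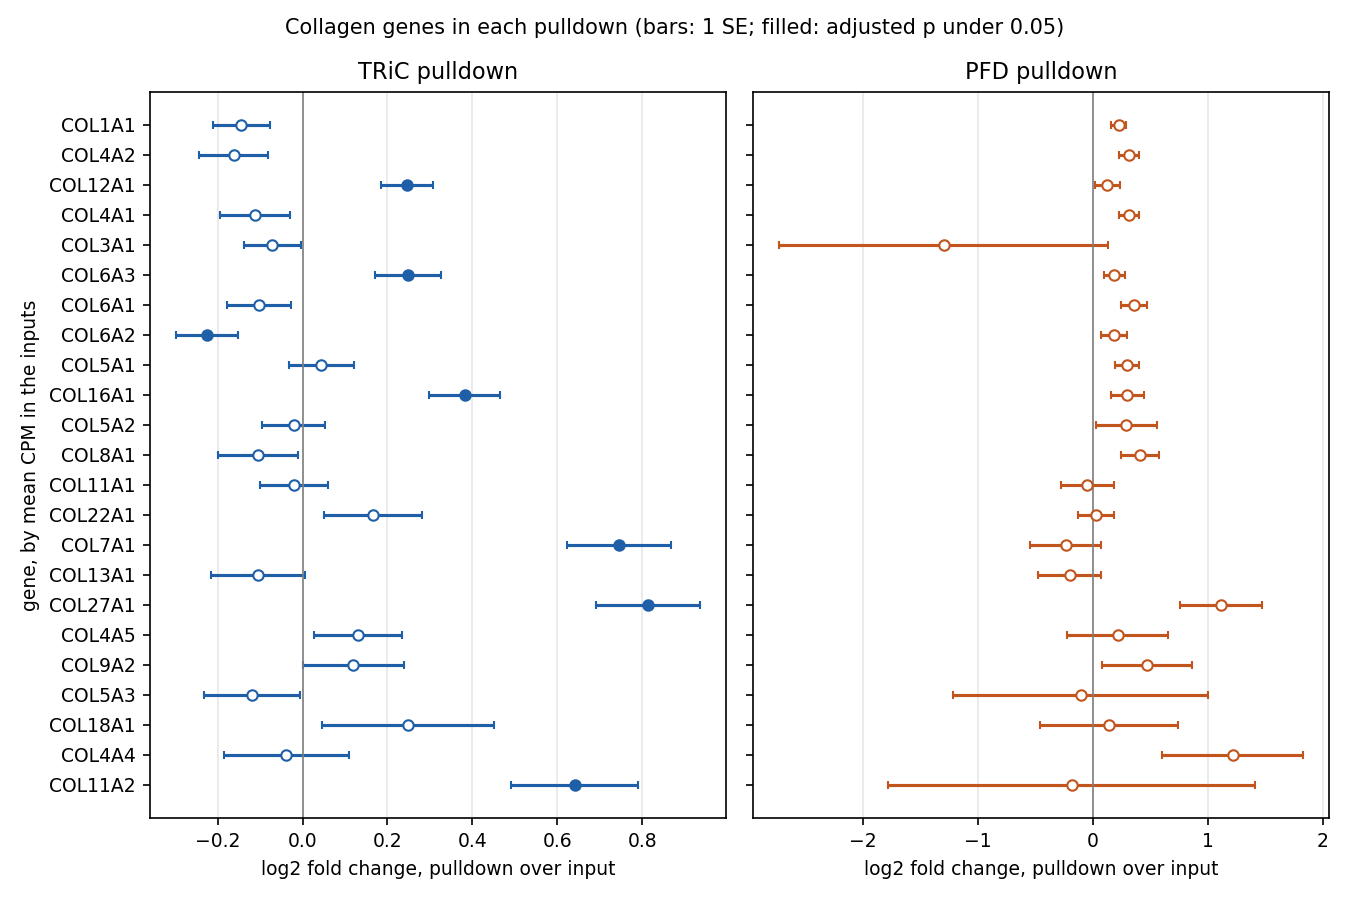
Log2 fold change of pulldown over input in the TRiC line (left) and the PFD line (right) for the 23 collagen genes with the highest mean CPM in the inputs, ordered by that mean; bars are 1 SE, filled points passed an adjusted p of 0.05, and the horizontal axes differ in range. In the PFD panel COL1A1, COL4A1 and COL4A2 lie between 0.23 and 0.32 with open points, and in the TRiC panel they lie between −0.16 and −0.11.

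The difference between both enrichments was tested directly as an interaction over all 8 libraries. None of the 37 members tested was called (edgeR), against 0.0371% of all 18855 genes tested (0.0212% higher and 0.0159% lower). On simulated data edgeR recovered 10 of 200 genes changed 2-fold in this comparison, so most differences of that size would go uncalled. At an unadjusted p under 0.05 there were 8 members, against 14.8% of all genes. DESeq2 called 1 member higher and 4 lower, against 2.52% and 2.84% of all genes. COL7A1 lay above its inputs in the TRiC line and below them in the PFD line, and the difference was 1.00 (SE 0.27, adjusted p = 0.200). COL6A2 went the other way in both lines, with a difference of −0.40 (SE 0.13, adjusted p = 0.252). For COL1A1 it was −0.36 (SE 0.14, adjusted p = 0.318), for COL4A2 −0.47 (SE 0.18, adjusted p = 0.300) and for COL6A1 −0.45 (SE 0.14, adjusted p = 0.234).

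The other genes of the collagen pathway were read by the same tests, from the chaperones inward to the matrix. Of 5 folding helpers of the endoplasmic reticulum, 4 were lower in the TRiC pulldown, where 10.6% of all genes were lower. SERPINH1 (Hsp47), the collagen-specific chaperone, stood at 845 and 809 CPM in the inputs and at 756 and 651 CPM in the pulldowns, −0.23 (SE 0.07, adjusted p = 0.0319). P4HB, the disulfide isomerase subunit of prolyl 4-hydroxylase, was at −0.23 (SE 0.06, adjusted p = 0.0160), PPIB, the prolyl isomerase cyclophilin B, at −0.23 (SE 0.07, adjusted p = 0.0327) and CRTAP, a partner of prolyl 3-hydroxylase, at −0.28 (SE 0.08, adjusted p = 0.0219). The median over the 5 genes was −0.23. None of the 5 was called with library totals in place of TMM or without TRiC input replicate 1. Fewer of them were lower without TRiC input replicate 2 and without TRiC pulldown replicate 2. Lower calls over all genes fell in those fits too.

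PPIB was the pathway gene that was lower in the PFD pulldown as well. It stood at 1279 and 1369 CPM in the PFD inputs and at 560 and 625 CPM in the pulldowns, far below both inputs, −1.15 (SE 0.09, adjusted p = 0.00556). Exons of opposite-strand genes overlap PPIB, so its counts may hold reads of another gene if strand was not used. The other 4 folding helpers were at 0.05 to 0.26 in the PFD pulldown and were not called by edgeR. DESeq2 called 1 of them higher, against 1.81% of all genes.

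Among 12 hydroxylases and glycosyltransferases, which modify prolines and lysines of the growing chain, 1 was lower in the TRiC pulldown, against 10.6% of all genes. That was P3H4, a partner of lysyl hydroxylase, at 103 and 104 CPM in the inputs and 84.5 and 72.5 CPM in the pulldowns, −0.40 (SE 0.09, adjusted p = 0.00598). Among 13 genes of procollagen cleavage and crosslinking, 2 were lower in the TRiC pulldown, against the same share of all genes. LOXL1 was at −0.31 (SE 0.10, adjusted p = 0.0326) and LOXL4 at −0.21 (SE 0.07, adjusted p = 0.0293), both lysyl oxidases that crosslink fibrils. Neither was called without TRiC input replicate 1 or without TRiC pulldown replicate 2, 1 gene of the list was lower without TRiC input replicate 2, and 6 were lower without TRiC pulldown replicate 1, where 13.9% of all genes were. In the PFD pulldown no gene of these 2 lists was called by edgeR or DESeq2 or had an unadjusted p under 0.05. Of procollagen export genes 7 were tested in each pulldown, of 10 collagen receptors 9 with TRiC and 7 with PFD, and of 8 collagen-degrading proteases 6 in each. None of those tested was called by edgeR. LAIR1, MMP1 and MMP8 passed the filter on low counts in neither pulldown, and ITGA10 and ITGA11 not in the PFD pulldown. At an unadjusted p under 0.05 these lists held 2, 2 and 0 genes in the TRiC pulldown, against 32.5% of all genes, and 0 each in the PFD pulldown, against 6.93%. DESeq2 called 1 receptor higher in the TRiC pulldown, where it called 1411 of all 17934 genes higher.

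Further matrix proteins give a comparison for the collagens. Of 26 secreted matrix glycoproteins tested in the TRiC pulldown, 1 was higher and 2 were lower, with a median log2 fold change of 0.07. Of 37 laminins and integrins tested, 4 were higher and 1 was lower, with a median of 0.10. Over all genes tested, 8.64% were higher and 10.6% lower. Their medians in the PFD pulldown were 0.14 and 0.12. The collagens, at 0.04 and 0.22, were not tested against either list.

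Between the inputs of both lines, several genes that act on collagen differed as well. Of the 13 genes of procollagen cleavage and crosslinking, 8 were higher and 1 was lower in the TRiC line, where 22.6% of all genes were higher and 17.7% lower. PCOLCE, the enhancer of procollagen C-proteinase, had 8160 and 8742 counts in the TRiC inputs against 137 and 80 in the PFD inputs, a log2 fold change of 5.27 (SE 0.09, adjusted p = 2.55e-05). DDR2, a receptor for fibrillar collagen, had 1824 and 2035 counts against 158 and 67, 3.13 (SE 0.17). CREB3L1, a transcription factor that drives collagen secretion, had 1832 and 1983 counts against 252 and 117, 2.39 (SE 0.15). ITGA11, a collagen-binding integrin chain, had 329 and 273 counts against 0 and 0, so it passed the filter on low counts only through the TRiC line. All of these were higher in the TRiC line, as were LOXL4 at 1.56, P3H3 at 1.10 and ADAMTS2, which removes the N-propeptide, at 1.79. By list, 4 of 12 hydroxylases and glycosyltransferases were higher and 2 lower, 4 of 9 receptors tested were higher and 1 lower, and 2 of 7 export genes were higher and none lower.

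Of the 6 collagen-degrading proteases tested, 1 was higher and 4 were lower in the TRiC line, against the same shares of all genes. MMP9, a gelatinase, stood at 32.0 and 29.2 CPM in the TRiC inputs against 369 and 342 CPM in the PFD inputs, −3.54 (SE 0.09). MMP13, a collagenase, stood at 2.53 and 2.26 CPM against 51.0 and 43.0 CPM, −4.29 (SE 0.20), and FAP was at −1.59 (SE 0.25). ITGA2, the integrin chain of a collagen receptor, stood at 40.0 and 46.8 CPM against 379 and 325 CPM, −3.02 (SE 0.12). Of the 5 folding helpers, 2 were higher and 3 lower, with PPIB at −1.06 (SE 0.07).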

How the data were processed

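Per the labels and the study's methods, the authors trimmed and demultiplexed the reads, removed PCR duplicates by molecular identifiers with UMI-tools, removed non-coding RNA with Bowtie2 2.4.2 and aligned to hg38 with STAR 2.7.10a, keeping unique alignments. The deposited values are whole-number counts per gene without normalization, in one table per line; all 8 columns were used. The annotation release and the strand column are not given in the sources used here, and gene counts hold no positions along the mRNA. Of 60664 identifiers, 60463 matched GENCODE release 44, which gave symbols, positions and coding sequences. Depths ranged from 9523128 to 32637658 counts.

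Within each line, pulldown was set against input, and the inputs were set against each other, with edgeR 4.0.16 (TMM, filterByExpr, glmQLFit, glmQLFTest; n = 2 against 2) in R 4.3.3, with Benjamini-Hochberg adjustment over all genes tested and a threshold of 0.05. The difference between enrichments was an interaction over all 8 libraries. SE is the log2 fold change divided by the square root of F. Samples were grouped by title. P-values measure the spread between 2 libraries. Alternatives were a replicate block, library totals, DESeq2 1.42.0, cyclic loess with limma 3.58.1, other filters, glmTreat against a fold of 1.5, one fit of all 8 libraries, genes without opposite-strand overlap and each library left out. The script was tested on simulated data, where DESeq2 made more false calls than edgeR in the PFD, interaction and input comparisons. It also recovered more of the changed genes in these comparisons. Members given in full were the 12 with the highest mean CPM in the inputs and every member called in any comparison. Pathway genes named were the called genes with the largest change and a mean of at least 100 counts, at most 12 per comparison. The members and lists were chosen with earlier results of these data known.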

Additional observations from a re-analysis of the deposited data

How the results depend on the processing

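Only 2 libraries per group limit every test here, and the scarce members rest on few counts. In the TRiC pulldown, 6 members were higher and 1 lower. With glmTreat against a fold of 1.5 and with all 8 libraries in one fit, 0 were higher and 0 lower. The lower count was also 0 with library totals without TMM, under cyclic loess, and once genes overlapping a gene on the opposite strand were left out. Leaving out one library at a time gave 2 to 7 higher, 0 to 6 lower and a median from −0.18 to 0.16. In the PFD pulldown, with 0 called, 6 were higher with DESeq2 and 1 (COL27A1) without a filter on low counts, and leaving out one library gave 0 to 6 higher and 0 to 1 lower. For the difference between the enrichments, with 0 called, DESeq2 gave 1 higher and 4 lower, and no filter on low counts gave 3 lower. Without that filter, calls over all genes rose from 4 to 213 higher and from 3 to 298 lower. Leaving out one library also changed the member counts, and calls over all genes rose without either PFD pulldown library. Between the inputs, with 18 higher and 8 lower, leaving out one library gave 10 to 23 higher and 7 to 9 lower, and the other settings 12 to 18 higher and 6 to 9 lower. Over all genes, too, calls in both directions rose without either PFD input library and fell without either TRiC input library. With glmTreat 13 were higher and 6 lower, while calls over all genes fell from 3685 to 2046 higher and from 2898 to 1183 lower. COL1A1, COL12A1, COL7A1, COL18A1, COL17A1, COL6A6 and COL24A1 were not called there. With all 8 libraries in one fit, COL18A1, COL11A2, COL17A1, COL26A1, COL9A3, COL6A6 and COL24A1 were not called, and under cyclic loess COL18A1, COL26A1, COL9A3, COL14A1, COL6A6 and COL24A1 were not. The cause of these changes was not tested.

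The pathway lists were run under settings beyond library totals and DESeq2 after seeing the data. In the TRiC pulldown the lower count of the folding chaperones, 4, was 0 with library totals, under cyclic loess, with glmTreat, with all 8 libraries in one fit and once overlapping genes were left out, and 0 to 5 with one library left out. Leaving out overlapping genes also removed PPIB from that list. Over all genes the lower calls, 1894, went to 1265 with library totals, 1433 under cyclic loess, 64 with glmTreat, 15 with all 8 libraries in one fit and 985 once overlapping genes were left out. That of the processing and crosslinking genes, 2, was 1 under cyclic loess, 0 under the other 4 of these settings and 0 to 6 with one library left out. That of the hydroxylases, 1, was 0 with glmTreat and with all 8 libraries, 2 with no filter on low counts and 1 to 3 with one library left out. Cyclic loess gave 1 higher call each for hydroxylases, export genes and receptors. Receptors also had 1 higher call with DESeq2 and with at least 10 counts in every library. In the PFD pulldown DESeq2 called 1 folding chaperone higher, and 1 processing gene was higher with all 8 libraries. PPIB is itself removed once overlapping genes are left out, so that setting did not test its lower call. With one library left out, the other changed counts ran from 0 to 1: higher hydroxylases and receptors and lower export genes and proteases in the TRiC pulldown, and higher chaperones, hydroxylases and processing genes and lower receptors in the PFD pulldown.

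With protein-coding nuclear genes as the denominator, the collagen share of TRiC input counts was 1.14% and 1.08%, that of TRiC pulldown counts 1.18% and 1.05%, that of PFD input counts 1.24% and 1.18%, and that of PFD pulldown counts 1.32% and 1.48%.

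Same-numbered libraries did not deviate together: the correlation of deviations from the group means was 0.0587 for TRiC and −0.00887 for PFD libraries. The study took input RNA and pulldowns from ribosome pellets, and same-numbered libraries of a line carry the same letter. Whether they share a preparation was not tested. With the replicate block, 3 members were lower in the TRiC pulldown (COL1A1 and COL4A2 beside COL6A2) and 1 was higher in the PFD pulldown (COL27A1). In the TRiC pulldown the block gave 3 lower hydroxylases, 1 lower export gene, 5 lower processing genes and 1 higher receptor, while calls over all genes rose from 1550 to 2037 higher and from 1894 to 2652 lower. No other call on the collagens named in these comparisons changed under the block.

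Some small log2 fold changes turned sign. In the TRiC pulldown under cyclic loess, COL1A1 was at 0.063, COL3A1 at 0.11, COL4A1 at 0.019, COL6A1 at 0.056 and COL5A2 at 0.11, and COL5A2 was at 0.028 with library totals. Between the inputs under cyclic loess, which moved the median of all genes from 0.11 to −0.03, COL16A1 was at 0.050 and COL24A1 at −0.0029. Leaving out one library gave ranges that cross 0 in the TRiC pulldown for COL3A1 (−0.16 to 0.015), COL4A1 (−0.24 to 0.0098), COL5A1 (−0.061 to 0.15), COL5A2 (−0.12 to 0.077) and COL8A1 (−0.22 to 0.012), and in the PFD pulldown for COL11A2 (−5.24 to 0.77). They did so for the difference of COL12A1 (−0.0094 to 0.30), COL3A1 (−0.32 to 3.03), COL6A3 (−0.046 to 0.22), COL16A1 (−0.10 to 0.34), COL27A1 (−0.70 to 0.38) and COL11A2 (−0.12 to 6.03), and between the inputs for COL16A1 (−0.18 to 0.060).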

Other observations

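The 6 collagen symbols below the count minimum were nearly silent in the inputs. Summed over the 4 inputs, COL6A5 had 18 counts, COL25A1 14, COL4A3 11, COL10A1 9, COL9A1 8 and COL21A1 3. COL4A3 and COL10A1 passed the filter on low counts in the TRiC pulldown comparison, but only through their pulldown libraries. COL4A3 had 0 and 11 counts in the TRiC inputs and 26 and 34 in the pulldowns, and COL10A1 9 and 0 against 50 and 14. They were not called, with adjusted p of 0.0931 and 0.0819 (edgeR), and genes kept in that way cannot test for a change.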
